A study of Ovis aries with 9 samples.

Results

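10 genes that move calcium into, out of and within the sarcoplasmic reticulum of muscle fibres were followed through later fetal life in sheep. They are ATP2A1 and ATP2A2 (calcium pumps), SLN and STRIT1 (small proteins that regulate the pumps), CACNA1S, RYR1 and JPH1 (voltage sensor, release channel and junction protein), and CASQ1, CASQ2 and PVALB (calcium buffers). They were chosen by name, with earlier results of these data known. Each was taken as the locus that carries its symbol, or the locus of highest mean where several did. This gave 10 of the 22605 loci in the table. The RNA was taken from longissimus dorsi, a long back muscle, in fetuses of the Chinese merino breed. The 9 libraries fall into 3 ages of 3 libraries each, which were gestation day 85 (D85), day 105 (D105) and day 135 (D135). Age is the only difference between groups that the labels give, and they name no genotype or treatment. Whether libraries of the same age are separate fetuses is not stated, so every p-value here measures the spread among libraries, part of which may be technical. Values are FPKM, fragments scaled by transcript length and by mapped fragments, so levels can be set side by side between genes.

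A muscle fibre contracts when calcium leaves the sarcoplasmic reticulum and relaxes when pumps of the SERCA family return it. An electrical signal in the transverse tubule moves the voltage sensor CACNA1S. This opens the release channel RYR1 across a gap that junctophilins such as JPH1 hold in place. Calsequestrins store calcium next to the channel, and parvalbumin binds it in the cytosol. Fast fibres are known for the pump ATP2A1 (SERCA1) and the buffer CASQ1, and slow fibres for ATP2A2 (SERCA2) and CASQ2. Sarcolipin (SLN) lowers the calcium affinity of the pump, and STRIT1 (DWORF) relieves such inhibition.

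The libraries held totals of 395797 to 489270 FPKM, and without counts the number of reads could not be known. Judged by the steps between low values, relative depth ran from 0.993 to 1.20, with D85 replicate 1 as 1. It was 1.12, 1.19 and 1.20 at D135 and at most 1.07 in any earlier library. Loci at 1 FPKM or more numbered 11283 to 11497 at D135 and 12098 to 12509 earlier. Depth and age cannot be told apart in comparisons with D135. All 7 skeletal muscle markers were detected in the labelled tissue. Their summed level ran from 2965 to 3852 FPKM at D85, 3884 to 4325 at D105 and 10084 to 12877 at D135. The rise lay mostly in ACTA1 (mean 1103 FPKM at D85 and 5292 at D135) and CKM (633 and 3501). TTN (812 and 1414), NEB (261 and 521) and DES (482 and 690) were also higher in mean, and MYOG (9.53 and 8.50) and MYOD1 (7.12 and 3.62) lower. The sum moved with most of the 10 genes, and its part in their changes was not tested. D105 replicate 2 stood apart in connective tissue and adipocyte markers. Its 5 fibroblast markers summed to 5101 FPKM, where replicates 1 and 3 had 1300.1 and 1339, and its 6 tendon and cartilage markers to 413 FPKM against 64.1 and 75.4. Not all of these markers differed, since PDGFRA was at 29.5 FPKM against 26.2 and 22.4, and SCX at 0.321 against 0.311 and 0.966. Its 4 adipocyte markers summed to 104 FPKM against 5.09 and 7.14. At D135 the adipocyte sum was 35.0, 68.8 and 13.6 FPKM in replicates 1, 2 and 3. Leukocyte markers summed to 11.3 to 22.1 FPKM over all libraries. Because these are whole-muscle samples, fewer cells of a type and less RNA per cell cannot be told apart. Over all 13086 tested loci the median log2 change was -0.33 from D105 to D135 and -0.35 from D85 to D135, and changes relative to that shift are given beside the main ones.

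Both pumps rose late. Of the SERCA genes, ATP2A1 (MSTRG.9895), the fast pump, was the more abundant at every age. It was at 90.1, 119 and 115 FPKM in D85 replicates 1, 2 and 3, at 154, 162 and 215 FPKM at D105, and at 370.3, 561 and 459.6 FPKM at D135. No library of a later day overlapped with those of an earlier day. The log2 change, on log2(FPKM + 1), from D105 to D135 was 1.38 ± 0.20 (SE; limma, Benjamini-Hochberg adjusted p = 0.00244), or 1.71 relative to the median of all loci. From D85 to D135 the mean level went from 108 ± 15.7 to 464 ± 95.3 FPKM (SD, n = 3), 4.29-fold (log2 change 2.08 ± 0.20, adjusted p = 0.000276). The step from D85 to D105, 0.70 ± 0.20 on the log2 scale, did not pass after adjustment (adjusted p = 0.221), although every D105 library was above every D85 library.

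ATP2A2 (MSTRG.7870), the slow and cardiac pump, followed another course. Its level was 55.2, 58.5 and 59.0 FPKM at D85 and 51.9, 57.4 and 48.5 FPKM at D105, and then 209, 103 and 134 FPKM at D135. The D85 and D105 libraries overlapped, and all D135 libraries lay above them. The log2 change was -0.13 ± 0.23 from D85 to D105 (limma adjusted p = 0.868), 1.42 ± 0.23 from D105 to D135 (adjusted p = 0.00342) and 1.29 ± 0.23 from D85 to D135 (adjusted p = 0.00285), with a 2.58-fold change of the mean over the whole interval. Smooth muscle also uses this pump. Its 4 matched markers summed to 40.9 to 75.1 FPKM at D85 and 20.8 to 27.6 FPKM at D135, a difference carried mostly by CNN1, while MYH11 was at 4.23 to 5.45 FPKM at D85 and higher, at 6.43 to 9.01 FPKM, at D135. Their part in the result was not tested. The gene also encodes a widely expressed splice form, and a value per locus does not separate it from the muscle form. The combined level of both pumps was 166 ± 17.7 FPKM at D85, 229.8 ± 30.2 at D105 and 612 ± 45.3 at D135 (SD, n = 3).

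**Figure D1:**
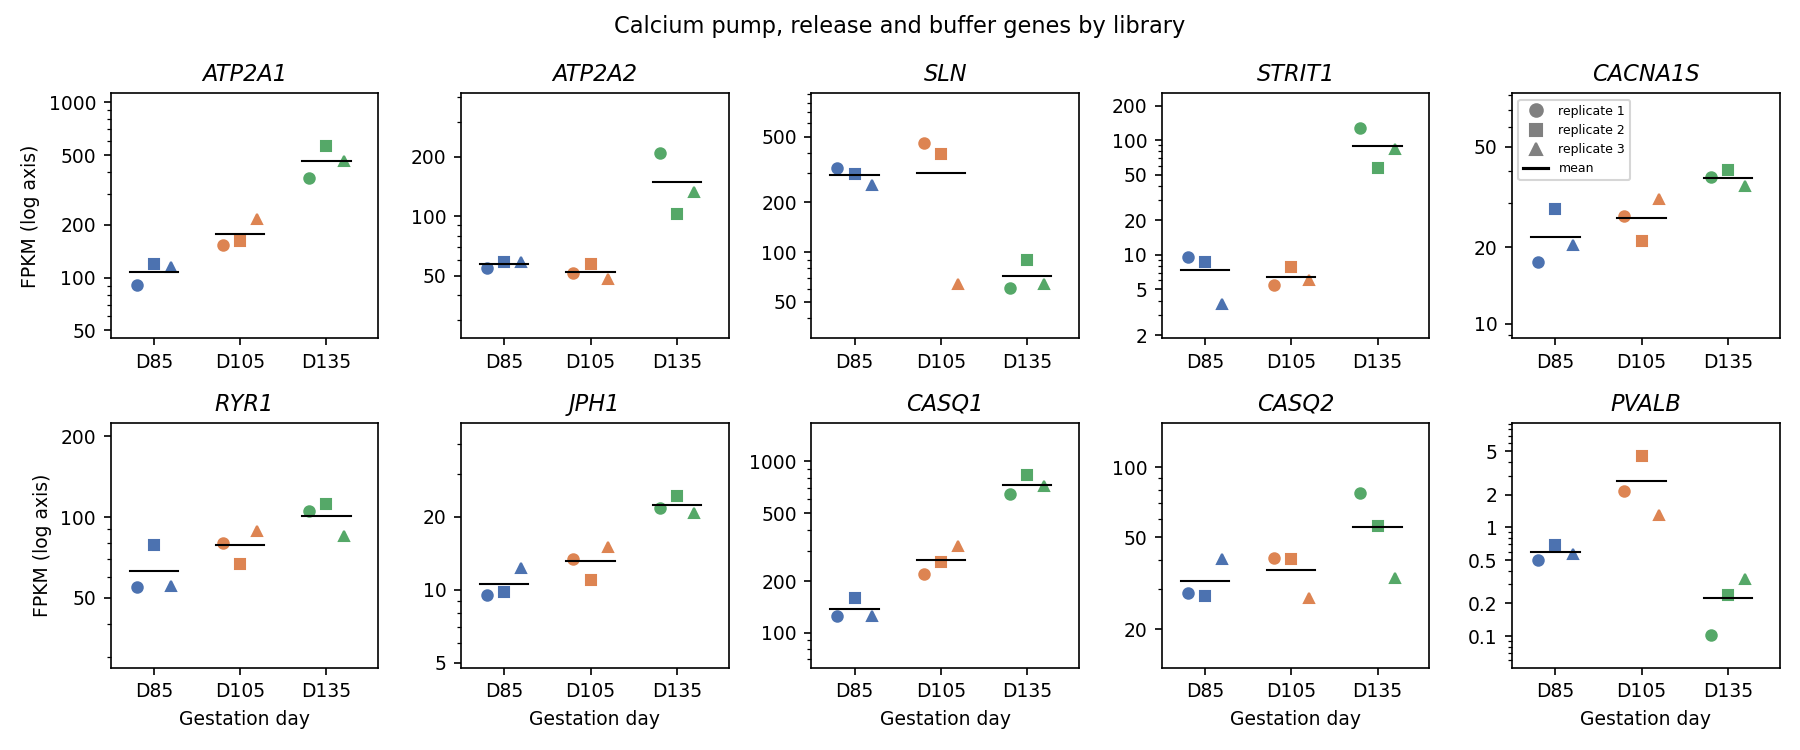
Level of each of the 10 genes in every library (FPKM on log axes, gestation day on the horizontal axis); points are libraries, with a shape per replicate number, and horizontal bars are means of 3. ATP2A1 and CASQ1 were higher in every library of each later day, whereas ATP2A2 and STRIT1 were separated from earlier days at D135 alone.

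The pump regulators moved in opposite directions. SLN (MSTRG.7280) stood at 322, 298 and 254 FPKM at D85, at 456, 389.7 and 63.9 FPKM at D105, and at 60.2, 89.3 and 64.6 FPKM at D135. D105 replicate 3 was low, within the D135 range, and the other D105 libraries were above all D85 libraries. The mean fell 4.08-fold from D85 to D135, by 2.03 ± 0.66 on the log2 scale (limma adjusted p = 0.0357), or -1.68 relative to the median of all loci. That call was lost under median-of-ratios scaling (log2 change -1.57, adjusted p = 0.118), under quantile normalization (0.0512), with no filter on low values (0.0546) and without any of the 6 D85 and D135 libraries in turn (adjusted p of 0.0622 to 0.0878), and the adjusted p over all alternatives ran from 0.000563 to 0.118. D105 replicate 3 sets the spread of this gene. Without D105 replicate 3 the adjusted p for D85 to D135 was 0.000563, and the change from D105 to D135 went from -1.67 ± 0.66 (adjusted p = 0.0769) to -2.57 (adjusted p = 0.00246). The change from D85 to D105, which was -0.36 ± 0.66 (adjusted p = 0.873), was 0.54 without it (adjusted p = 0.437), and neither passed.

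STRIT1 (MSTRG.880) had the largest log2 change of the 10 genes in both comparisons with D135. In the table this locus has a gene number and no symbol, and it was matched to STRIT1 by that number in RefSeq. The record lists predicted non-coding transcripts, so the identity rests on the gene record and not on a coding sequence. Its level was 9.62, 8.59 and 3.76 FPKM at D85, 5.47, 7.84 and 5.99 FPKM at D105, and 127, 56.7 and 83.1 FPKM at D135. The D85 and D105 libraries overlapped, and the lowest D135 library was well above them. The mean rose 13.9-fold from D105 to D135 (log2 change 3.54 ± 0.37, limma adjusted p = 0.000990) and 12.2-fold from D85 to D135 (3.44 ± 0.37, adjusted p = 0.000392).

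Within each library, SLN was 33.5, 34.7 and 67.6 times STRIT1 at D85 and 83.4, 49.7 and 10.7 times at D105, against 0.473, 1.58 and 0.777 times at D135. No D135 library overlapped with an earlier one, and in D135 replicates 1 and 3 STRIT1 exceeded SLN. On the log2 scale the mean ratio was 5.21 ± 0.46, 4.94 ± 1.53 and -0.26 ± 0.86 at D85, D105 and D135 (SD, n = 3). A two-sided exact permutation test over all 1680 arrangements of the libraries, whose smallest p is 0.00357, gave p = 0.0321 for any difference between days, and 0.0857 after adjustment over the 4 ratios tested. Set against the combined pump level, SLN was at 2.22, 1.68 and 1.46 FPKM per FPKM of pump at D85 and at 0.104, 0.135 and 0.109 at D135. STRIT1 per FPKM of pump was at 0.0662, 0.0483 and 0.0216 at D85 and at 0.220, 0.0854 and 0.140 at D135, without overlap.

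**Figure D2:**
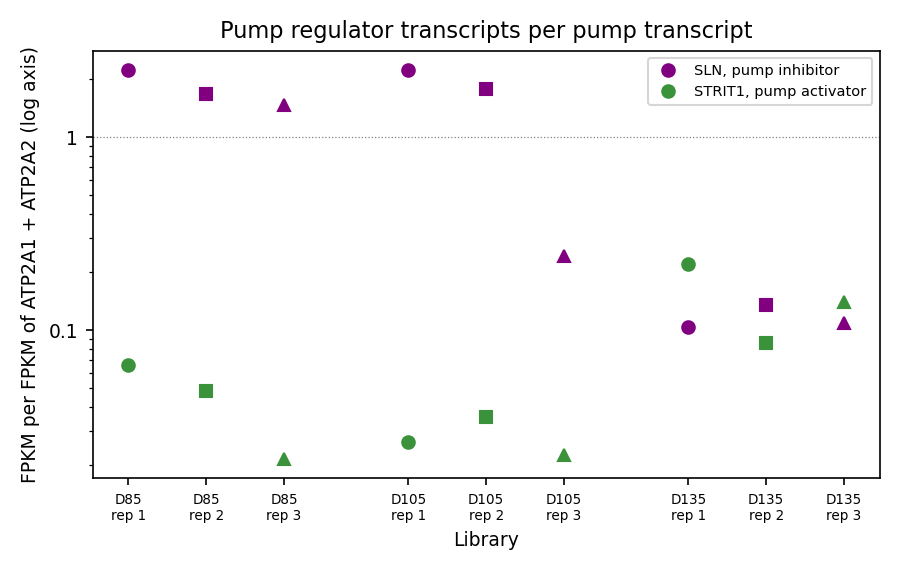
SLN and STRIT1 in each library, as FPKM per FPKM of the combined pumps ATP2A1 and ATP2A2 (log axis); each point is 1 library. SLN was above 1 in 5 of the 6 D85 and D105 libraries, with D105 replicate 3 at 0.242, and STRIT1 was higher at D135 than in any earlier library.

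The voltage sensor and the release channel rose from D85 to D135 by 1.71-fold and 1.60-fold, smaller values than those of both pumps, though the difference was not tested. CACNA1S (MSTRG.6274), the pore subunit of the transverse tubule calcium channel, was at 17.5, 28.3 and 20.4 FPKM at D85, 26.5, 21.2 and 31.1 FPKM at D105 and 37.9, 40.6 and 34.9 FPKM at D135. All D135 libraries were above all others, and D85 and D105 overlapped. From D85 to D135 it rose (log2 change 0.78 ± 0.19, limma adjusted p = 0.0127). From D105 to D135 the log2 change of 0.52 ± 0.19 did not pass (adjusted p = 0.0625), and it did under 4 alternatives, with adjusted p from 0.0133 to 0.171 over all of them.

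RYR1 (MSTRG.6999), the skeletal calcium release channel, was at 54.8, 78.9 and 55.5 FPKM at D85, 80.1, 67.0 and 88.6 FPKM at D105 and 105, 112 and 84.6 FPKM at D135. Each day overlapped with the next, and only D85 and D135 were apart. The log2 change from D85 to D135 was 0.68 ± 0.18 (limma adjusted p = 0.0175), a 1.60-fold change of the mean. That call was lost without D85 replicate 1, D85 replicate 3, D135 replicate 1 or D135 replicate 2, with adjusted p of 0.0576, 0.0551, 0.0507 and 0.0598. Neither shorter interval passed, with log2 changes of 0.32 ± 0.18 (adjusted p = 0.522) and 0.35 ± 0.18 (adjusted p = 0.157). Under median-of-ratios scaling the D105 to D135 change passed (adjusted p = 0.0208).

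The ratio of RYR1 to CACNA1S was 3.13, 2.79 and 2.73 in the D85 libraries, 3.02, 3.16 and 2.85 at D105 and 2.78, 2.76 and 2.42 at D135. It thus ran from 2.42 to 3.16 over all 9 libraries, while the CACNA1S level itself ran from 17.5 to 40.6 FPKM. The log2 ratio differed by -0.10 between D85 and D135 (exact permutation p = 0.164, adjusted 0.189). JPH1 (MSTRG.4961), which anchors the reticulum to the transverse tubule, was at 9.52, 9.79 and 12.3 FPKM at D85, 13.4, 11.0 and 15.1 FPKM at D105 and 21.8, 24.4 and 20.7 FPKM at D135. D135 was above both earlier days in every library, and D85 and D105 overlapped. JPH1 rose by a log2 change of 0.73 ± 0.14 from D105 to D135 (limma adjusted p = 0.00655) and 1.02 ± 0.14 from D85 to D135 (adjusted p = 0.00109).

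RYR3, a second release channel known from developing muscle, fell as RYR1 rose. It was at 19.4, 29.9 and 14.8 FPKM at D85, 10.4, 4.87 and 13.7 FPKM at D105 and 2.36, 2.14 and 1.42 FPKM at D135, with no library overlapping between days. It fell by 2.87 ± 0.36 on the log2 scale from D85 to D135 (limma adjusted p = 0.000766). RYR1 made up 75.1% ± 3.39 of the sum of RYR1 and RYR3 at D85, 89.4% ± 3.41 at D105 and 98.1% ± 0.268 at D135 (SD, n = 3).

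Among the buffers, CASQ1 (MSTRG.533), the fast-fibre calsequestrin, was the most abundant of the 10 genes at D135. It was at 125, 159 and 126 FPKM at D85, 221, 258 and 322 FPKM at D105 and 643, 838 and 718 FPKM at D135. Each day lay above the one before in every library. Its log2 change was 0.95 ± 0.18 from D85 to D105, short of the threshold (limma adjusted p = 0.117), then 1.46 ± 0.18 from D105 to D135 (adjusted p = 0.00143). From D85 to D135 it rose 5.36-fold (log2 change 2.42 ± 0.18, or 2.77 relative to the median of all loci, adjusted p = 0.000143).

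CASQ2 (MSTRG.331), the calsequestrin of heart and slow fibres, was at 28.7, 27.9 and 40.4 FPKM at D85, 40.5, 40.4 and 27.3 FPKM at D105 and 77.7, 55.9 and 33.3 FPKM at D135. D135 replicate 3 lay within the range of the earlier days, and D135 replicates 1 and 2 lay above it. The log2 change from D85 to D135 was 0.70 ± 0.31 and did not pass (limma adjusted p = 0.0963). It passed without D135 replicate 3 (adjusted p = 0.0182) and under median-of-ratios scaling (adjusted p = 0.0262), and the adjusted p ran from 0.0182 to 0.268 over all alternatives. The combined calsequestrin level was 169 ± 17.2, 303 ± 44.3 and 788 ± 92.6 FPKM at D85, D105 and D135 (SD, n = 3).

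PVALB (101122682), the cytosolic buffer, was near the lower limit of the table. It was at 0.501, 0.691 and 0.575 FPKM at D85, 2.18, 4.56 and 1.30 FPKM at D105 and 0.102, 0.240 and 0.333 FPKM at D135. The days did not overlap, with D105 highest and D135 lowest. It reached 1 FPKM in the 3 D105 libraries alone and passed the filter only through them, so a difference from D105 was built in by the filter. It is therefore given as values with no test and is counted apart.

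Of the other 9 genes, all of which were at 1 FPKM or more in every library, 0 passed between D85 and D105, where 0.199% of all tested loci did, 0.145% higher and 0.0535% lower. In 2 of the 9 every D105 library was above every D85 library, beside 8.00% of all loci (10.4% had every D105 library below). At an unadjusted limma p under 0.05 there were 2 of 9, ATP2A1 and CASQ1, and 1611 of the 13086 loci. Between D105 and D135, 5 of the 9 rose (ATP2A1, ATP2A2, STRIT1, JPH1 and CASQ1), 0 fell and 4 did not pass, where 39.5% of all loci passed, 4.47% higher and 35.0% lower. Every D135 library was above every D105 library for 6 of the 9, beside 6.43% of all loci, and below for 0, beside 47.7%. Between D85 and D135, 7 of 9 rose, SLN fell and CASQ2 did not pass, where 46.6% of all loci passed, 6.90% higher and 39.7% lower. The same 8 genes did not overlap between those days, 7 higher and 1 lower, beside 9.42% of all loci higher and 48.8% lower. The median log2 change of the 9 genes was 0.25, 0.73 and 1.02 in these comparisons, beside -0.02, -0.33 and -0.35 over all loci. The comparisons share libraries and are not independent of each other, and the genes were chosen with earlier results of these data known. The split of calls over all loci depends on the scaling, since median-of-ratios scaling put 1942 of 3615 calls from D85 to D135 higher, against 903 of 6097 with the values as deposited. As deposited, 7 of the 9 genes were called higher and 1 lower from D85 to D135, and under median-of-ratios scaling 8 were called higher and 0 lower, with SLN lost and CASQ2 gained. Without D105 replicate 2, whose connective tissue markers were high, the same 5 genes rose from D105 to D135.

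**Figure D3:**
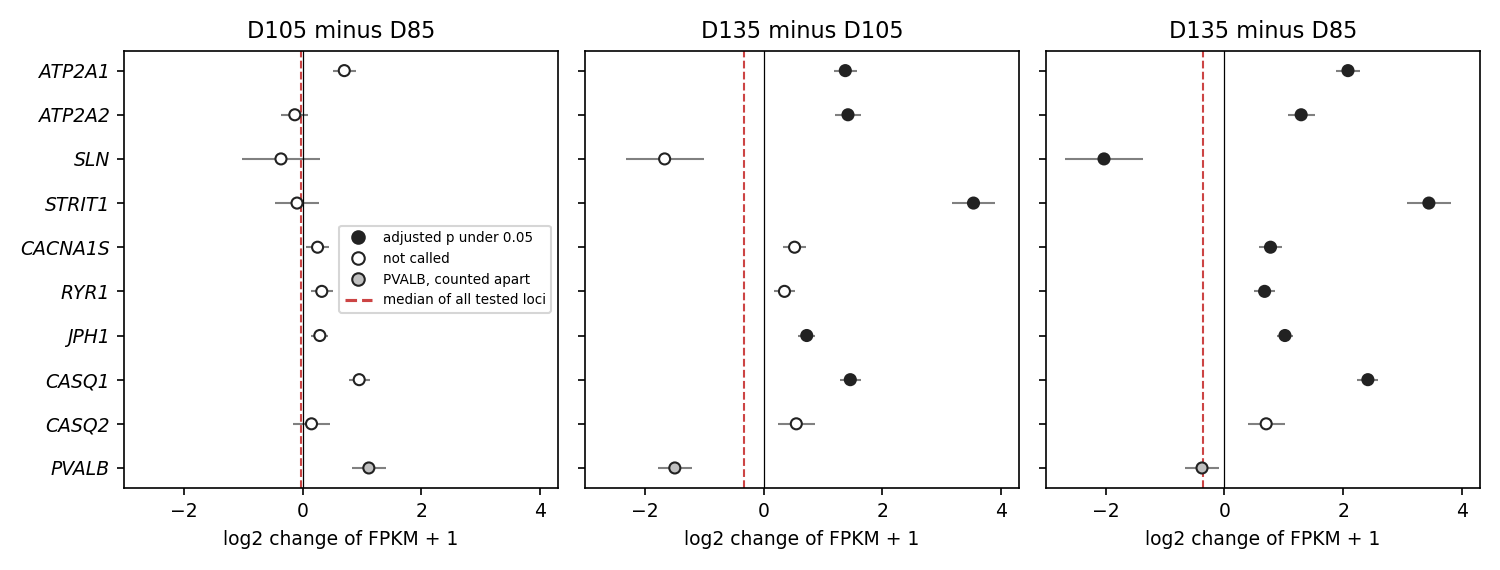
Log2 change of each gene on log2(FPKM + 1) from D85 to D105, D105 to D135 and D85 to D135, with bars of 1 SE; black points passed an adjusted limma p of 0.05, grey points are PVALB, whose difference from D105 the filter fixed in part, and the dashed line is the median of all tested loci. Black points are absent from D85 to D105, and STRIT1 and CASQ1 lie farthest to the right from D85 to D135.

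Fast and slow forms were compared within each library, where scaling between libraries cancels. For the pumps, ATP2A1 was 1.63, 2.04 and 1.95 times ATP2A2 at D85, 2.97, 2.83 and 4.44 times at D105 and 1.77, 5.44 and 3.44 times at D135. Every D105 library was above the D85 range, while D135 replicate 1 fell back inside it. ATP2A1 took 65.1% ± 2.67 of the pump sum at D85, 76.8% ± 4.24 at D105 and 75.3% ± 10.4 at D135 (SD, n = 3). The log2 ratio was 0.89 ± 0.17, 1.72 ± 0.36 and 1.68 ± 0.81, and the difference between days did not pass (two-sided exact permutation p = 0.189, adjusted 0.189). The D85 to D135 difference of 0.79 was 0.41 without D135 replicate 2 and 1.22 without D135 replicate 1.

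For the calsequestrins, CASQ1 was 4.35, 5.71 and 3.11 times CASQ2 at D85, 5.45, 6.40 and 11.8 times at D105 and 8.27, 15.0 and 21.6 times at D135. D85 and D105 overlapped, as did D105 and D135, and every D135 library was above every D85 library. CASQ1 took 80.7% ± 4.74, 87.7% ± 3.99 and 92.8% ± 3.27 of the calsequestrin sum (SD, n = 3). The log2 ratio was 2.06 ± 0.43, 2.86 ± 0.58 and 3.77 ± 0.69, a difference of 1.71 between D85 and D135 (two-sided exact permutation p = 0.0429, adjusted 0.0857), which did not hold after adjustment. The fast form was thus the larger in all 9 libraries for both pairs.

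**Figure D4:**
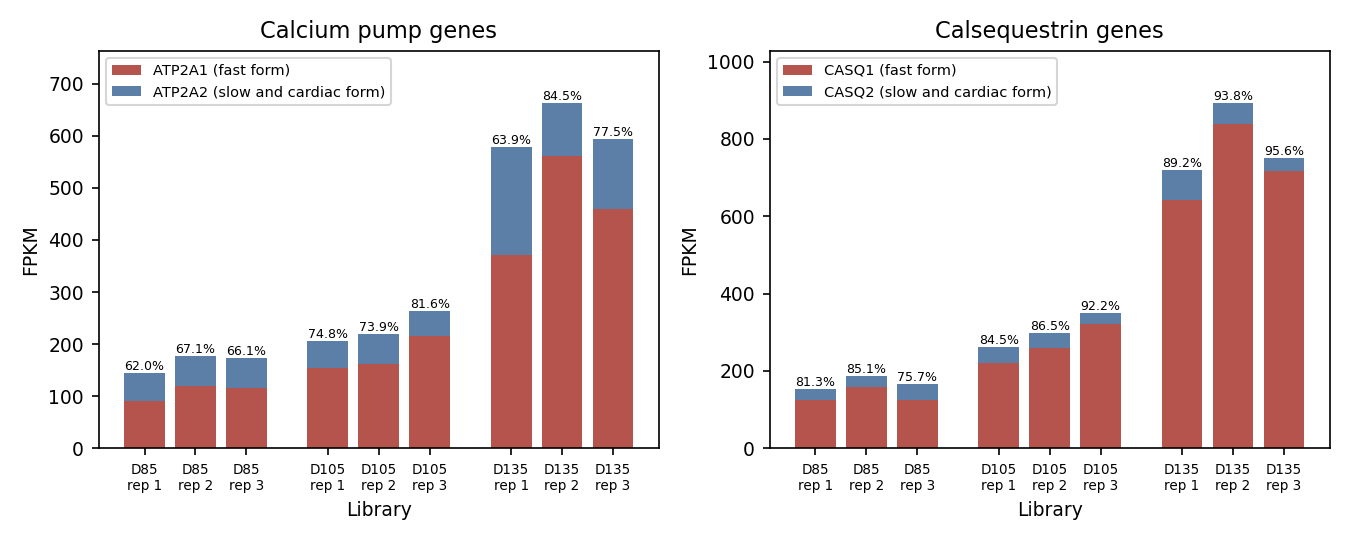
Stacked levels (FPKM) of the fast and slow form in each library, pumps on the left and calsequestrins on the right; the figure over each bar is the percent taken by the fast form. Both sums were highest at D135, where the fast share ran from 63.9% to 84.5% for the pumps and from 89.2% to 95.6% for the calsequestrins.

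Among libraries of the same age, the slow pump followed the order of the summed slow contractile markers at D105 and D135 and not at D85. Not every marker had that order. At D105 TNNC1 was lowest in replicate 2 (199, 167 and 182 FPKM in replicates 1, 2 and 3) and TNNI1 highest in replicate 1 (15.0, 14.4 and 12.8). At D135 MYL3 was highest in replicate 2 (6.72, 8.09 and 5.50 FPKM). At D135, ATP2A2 was 209, 103 and 134 FPKM in replicates 1, 2 and 3, and the 7 slow contractile markers (such as MYH7 and TNNT1) summed to 7762, 3403 and 6043 FPKM. The fast contractile markers, 6 loci for 7 of 9 genes, summed to 10299, 14456 and 11821 FPKM in the same libraries. That sum had the order of ATP2A1 and CASQ1, whereas TNNI2 (2053, 2710 and 1920 FPKM) and ACTN3 (174, 249 and 157) were lowest in replicate 3. The fast sum did not keep the order of both genes earlier. It was 10082, 6368 and 7519 FPKM at D105, highest in replicate 1, where both genes were lowest. Its loci differed at D105. MYLPF, TNNC2 and TNNI2 were highest in replicate 1, the locus of MYH1 and MYH2 in replicate 2 and MYL1 in replicate 3. ACTN3 (45.3, 62.1 and 95.3 FPKM) had the order of both genes. At D85 the fast sum was 5495, 6689.7 and 7408 FPKM, highest in replicate 3, whereas both genes were highest in replicate 2. STRIT1 had the order of ATP2A2 at D135, whereas CASQ2 was lowest in replicate 3. At D105, replicate 3 had the lowest ATP2A2, CASQ2 and SLN and the lowest slow sum (636 FPKM, against 855 and 1118), and the highest ATP2A1, CASQ1, RYR1, CACNA1S and JPH1. At D85 replicate 3 had the lowest slow sum (647 FPKM, against 883 and 1003) and the highest ATP2A2 and CASQ2. The slow sum ran from 636 to 1118 FPKM at D85 and D105 together and from 3403 to 7762 at D135. Its part in the late change of ATP2A2, STRIT1 and SLN was not tested.

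By mean level the order of the genes changed with age. At D85 SLN was highest, at rank 98 of the tested loci, followed by CASQ1 at rank 183 and ATP2A1 at rank 225, none of which overlapped. RYR1 and ATP2A2 came next and overlapped, as did CASQ2 and CACNA1S below them, and JPH1 and STRIT1 after those. At D105 SLN and CASQ1 overlapped at the top, with ATP2A1 below both in mean. At D135 CASQ1 (rank 35) was above ATP2A1 (rank 75) in every library, and ATP2A1 above all others. ATP2A2, RYR1, STRIT1, SLN, CASQ2 and CACNA1S followed, each overlapping with the next, then JPH1. STRIT1 went from rank 4698 at D85 to 271 at D135, and SLN from 98 to 326. PVALB was last at every age.

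The genes whose log2 levels most resembled each form over the 9 libraries are given as a description, since all follow the same days and libraries. For ATP2A1 they were ENO3, the muscle enolase of glycolysis (Pearson r = 0.993), CASQ1 (r = 0.990) and GADL1 (r = 0.989). For ATP2A2 they were MYH7B, a myosin heavy chain of slow-type muscle (r = 0.995), TNNI1, slow troponin I (r = 0.986), and PPP1R3B, which targets a phosphatase to glycogen (r = 0.969). CASQ1 was followed most closely by ATP2A1, then UCKL1 (r = 0.989) and BCL6 (r = 0.982), and CASQ2 by MUT (r = 0.952), SMIM4 (r = 0.936) and SNX1 (r = 0.904).

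Other genes of calcium handling, 61 by name in 7 lists, gave a mixed picture. Of these, 56 were matched and 52 tested. From D85 to D105, 0 of 52 passed (limma, 11 at an unadjusted p under 0.05), where 0.199% of all tested loci did. From D105 to D135, 9 rose, 7 fell and 36 did not pass, beside 4.47% of all loci higher and 35.0% lower. From D85 to D135, 11 rose, 9 fell and 32 did not pass, beside 6.90% higher and 39.7% lower, shares that also stand beside the counts by list given next. Their median log2 change from D85 to D135 was 0.08, or 0.44 relative to the median of all loci. Under median-of-ratios scaling the D85 to D135 split was 20 higher and 3 lower, beside 1942 higher among 3615 calls over all 13086 tested loci.

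In the release unit, 2 of 12 tested genes rose and 2 fell from D85 to D135. TMEM38A, a potassium channel of the reticulum that balances charge during release, went from 29.9 ± 1.70 to 55.4 ± 2.59 FPKM (SD, n = 3; log2 change 0.87 ± 0.13, limma adjusted p = 0.00129). STAC3, which couples the voltage sensor to the release channel, went from 19.6 ± 3.39 to 33.1 ± 5.18 FPKM (log2 change 0.73 ± 0.19, adjusted p = 0.0141). RYR3 was the larger of those that fell. Of the 6 voltage sensor subunits, 2 rose and 0 fell. CACNG1, the gamma subunit of the skeletal channel, went from 6.66 ± 0.512 to 18.7 ± 0.428 FPKM (log2 change 1.36 ± 0.10, adjusted p = 0.000157), a larger fold than that of CACNA1S, though the difference was not tested. CACNB1, the beta subunit, went from 7.38 ± 0.256 to 10.9 ± 1.14 FPKM (adjusted p = 0.0353), and its call was lost in 5 fits that left out 1 library.

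Of 5 genes for transverse tubule formation, BIN1, which bends the tubule membrane, rose from 62.7 ± 2.46 to 82.8 ± 6.60 FPKM (SD, n = 3; log2 change 0.39 ± 0.12, limma adjusted p = 0.0321). Its call was lost under quantile normalization (adjusted p = 0.0531), with a replicate block (0.0664) and in 5 fits that left out 1 library. DYSF, a membrane repair protein, fell from 35.8 ± 2.06 to 24.8 ± 2.14 FPKM (adjusted p = 0.0125), but not under median-of-ratios scaling (adjusted p = 0.787) or quantile normalization (0.0992). Of 8 tested genes for store-operated entry and surface extrusion, 0 rose and 3 fell, a share close to the 39.7% of all loci called lower. ATP2B1, the surface membrane calcium pump, fell from 28.3 ± 1.74 to 13.3 ± 0.466 FPKM (log2 change -1.04 ± 0.10, adjusted p = 0.000297). STIM2, a sensor of the store's calcium, fell from 4.43 ± 0.451 to 1.79 ± 0.115 FPKM (adjusted p = 0.00126). SLC8A3, a sodium-calcium exchanger, fell from 9.53 ± 0.571 to 6.72 ± 0.298 FPKM (adjusted p = 0.0211), but not under median-of-ratios scaling (adjusted p = 0.888), quantile normalization (0.629) or a total without the top 50 loci (0.0714), and its call was also lost in 4 fits that left out 1 library (adjusted p of 0.0541 to 0.0641).

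Among 12 tested genes of calcium binding and sensing, 5 rose and 2 fell. S100A1, a calcium sensor that binds the release channel, went from 0.920 ± 0.405 to 4.71 ± 1.09 FPKM (SD, n = 3; log2 change 1.58 ± 0.19, limma adjusted p = 0.000667). CAMK2B, a subunit of the calmodulin-dependent kinase, went from 1.61 ± 0.195 to 6.14 ± 0.369 FPKM (log2 change 1.45 ± 0.13, adjusted p = 0.000222). CALU, a calcium-binding protein of the secretory pathway, fell from 62.8 ± 3.29 to 32.5 ± 7.81 FPKM (adjusted p = 0.00273), but not under median-of-ratios scaling (adjusted p = 0.0638). Of 5 mitochondrial uptake genes, SMDT1, a small subunit of the uniporter, rose from 30.5 ± 4.93 to 43.7 ± 1.62 FPKM (adjusted p = 0.0183), and MCU, its pore, fell from 44.3 ± 2.70 to 30.9 ± 0.829 FPKM (adjusted p = 0.00348). The SMDT1 call was lost in 3 fits that left out 1 library, and the MCU call under median-of-ratios scaling (adjusted p = 0.770).

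Of the 4 other tested pump regulators 0 passed from D85 to D135 (limma, 0 at an unadjusted p under 0.05), and 1, PLN, did without D135 replicate 1. SRL, sarcalumenin, a calcium-binding protein of the reticulum and the most abundant of them, was at 176 ± 5.42, 118 ± 67.8 and 151 ± 4.96 FPKM at D85, D105 and D135 (SD, n = 3). D105 replicate 2 was at 39.3 FPKM and the other D105 libraries at 155 and 159 FPKM. PLN, phospholamban, the inhibitor of ATP2A2 in heart and slow fibres, was at 4.02, 6.86 and 5.14 FPKM at D85, 0.570, 0.792 and 0.291 FPKM at D105 and 33.8, 1.73 and 2.50 FPKM at D135. D105 was below both other days in every library, and D135 replicate 1 stood far above the rest. Its log2 change from D85 to D135 was 0.15 (limma adjusted p = 0.896), and without D135 replicate 1 it was -1.01 and passed (adjusted p = 0.0144).

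**Figure D5:**
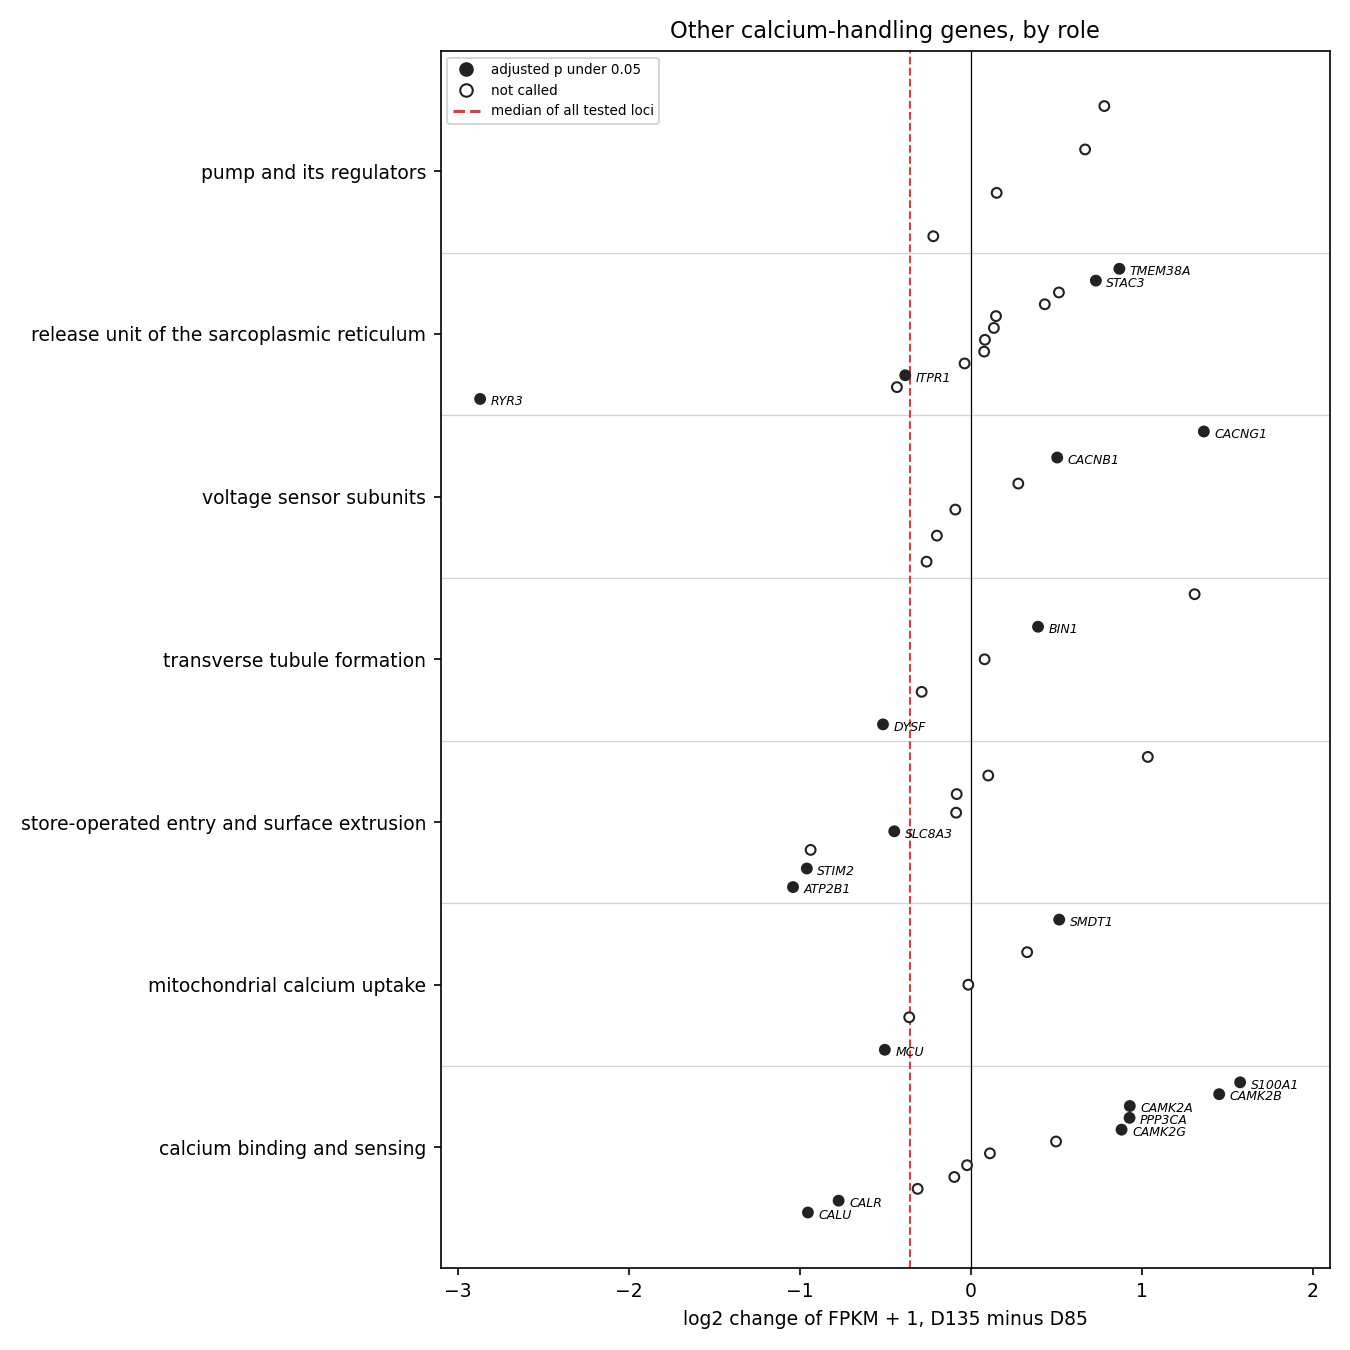
Log2 change from D85 to D135 on log2(FPKM + 1) of the 52 other tested calcium genes, by list; filled and named points passed an adjusted limma p of 0.05 and the dashed line is the median of all tested loci. RYR3 is the lowest point, and S100A1 the highest of those that passed.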

How the data were processed

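Per the file headers, the authors deposited a table of FPKM values with a column per library. TopHat2, Bowtie2 and cutadapt were used, per the submitters' processing notes, without versions. How reads were assembled and counted, and on which build, is not given in the sources used here. Neither coordinates nor sequences are printed. The labels name Trizol extraction and an mRNA and a small RNA kit, and the design text names a pair of HiSeq models without assigning libraries, so a batch could not be tested. Libraries were grouped by title. Loci of at least 1 FPKM in at least 3 of 9 libraries (13086 of 22605) were tested as log2(FPKM + 1), a scale that understates changes of low genes, with limma 3.58.1 in R 4.3.3 (trended eBayes). The fit took all 9 libraries together and no block; tests were two-sided, adjusted by Benjamini-Hochberg over every tested locus, and called under 0.05. The script was tested on simulated data. Ratios used log2 values with the same pseudocount and an exact permutation test. A RefSeq gene table (ARS-UI_Ramb_v3.0) gave names for 494 loci. The members and lists were chosen with earlier results of these data known. Named were all members, up to 3 called genes of each list by size of the D85 to D135 change (or the most abundant, where none was called) and the 3 loci most like each fast or slow form; PLN was named after its values were seen. Alternatives changed the pseudocount, filter, scaling (median of ratios, quantiles, total without the top 50 loci), variance model, library weights, libraries fitted, replicate block and each library in turn; those for the other calcium genes, and counts without PVALB, were added after the data were seen. Python 3.11.15, numpy 2.4.6, pandas 2.3.3 and matplotlib 3.10.9 made the summaries and figures.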

Additional observations from a re-analysis of the deposited data

How the results depend on the processing

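Over 540 alternative values for the 27 changes of the 9 genes other than PVALB, 514 kept their direction and their side of the threshold, 13 lost a call, 9 gained one and 4 changed sign. Those 4 were changes from D85 to D105 that passed in no setting: SLN (0.54 without D105 replicate 3) and STRIT1 (0.00043 without D105 replicate 1, 0.12 without D85 replicate 1 and 0.05 without D85 replicate 2). With each library left out in turn these changes ran from -0.87 to 0.54 for SLN and from -0.45 to 0.12 for STRIT1. Among the other calcium genes named, SRL changed sign from D85 to D135 under median-of-ratios scaling (0.25, not passing). Of the 9 genes, 0 were called from D85 to D105 in all 20 alternatives, 5 to 7 from D105 to D135 (5 as reported) and 6 to 8 from D85 to D135 (8 as reported). PVALB could not be tested without each D105 library in turn, since it then missed the filter. The log2 ratio of SLN to STRIT1 differed by -5.47 between D85 and D135, and by -5.93 to -5.07 when each library was left out in turn; without D105 replicate 3 it passed the test (adjusted exact permutation p = 0.0429). Over all alternatives the adjusted p of the ATP2A1 to ATP2A2 ratio was 0.0571 to 0.375, and that of CASQ1 to CASQ2 was 0.0571 to 0.193. The labels give no shared animal for equal replicate numbers. Deviations of same-numbered libraries from their day means had correlations of -0.0659 to 0.0605, and those of differently numbered libraries -0.0933 to 0.0520. No closer likeness by number was seen, but with 3 libraries per day these values cannot show whether the numbers pair the samples. With a replicate block 0, 5 and 8 of the 9 genes were called, as without it, and 8, 4320 and 5495 of all loci, against 26, 5164 and 6097. With the block the ratios differed between D85 and D135 by 0.79 (ATP2A1 to ATP2A2), 1.71 (CASQ1 to CASQ2), -5.47 (SLN to STRIT1) and -0.10 (RYR1 to CACNA1S). The exact permutation p adjusted over the 4 was 0.222, 0.111, 0.148 and 0.148. Here days were permuted only among libraries of equal replicate number, which leaves far fewer arrangements than the 1680 of the main test. A ratio could not pass on its own after adjustment over the 4, so no conclusion is drawn from these values. Reads per library are unknown, so no counting error could be given, and PVALB at under 1 FPKM in 6 of 9 libraries is the least certain of the genes.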
